A study of Cavia porcellus with 12 samples.

Results

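The pyruvate dehydrogenase complex converts pyruvate to acetyl-CoA in the mitochondrial matrix, and the citric acid cycle oxidises acetyl-CoA to carbon dioxide while reducing the electron carriers that feed the respiratory chain. In liver the cycle also supplies and receives carbon for gluconeogenesis, amino acid breakdown and lipid synthesis. Kinases switch the pyruvate dehydrogenase complex off by phosphorylating its E1 subunit, and phosphatases switch it on again. The mRNA of 33 enzymes, subunits and regulators of these steps, listed by enzyme name among the genes of the deposited regularised log (rlog) table, was compared between the livers of guinea pigs with non-alcoholic steatohepatitis (NASH) and of controls. That table holds the 11896 gene symbols tested, each with enough reads to pass the filter of the study.

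The animals were female Dunkin Hartley guinea pigs, 10 weeks old when obtained and 1 week later put on their diets, and the RNA was poly(A)-selected from the left lateral liver lobe without perfusion. The 6 controls had eaten a chow diet for 25 weeks and were chosen for the absence of NASH and fibrosis. The 6 animals with NASH had eaten a high-fat diet with added sucrose and cholesterol for the same time and were chosen for bridging fibrosis, so diet and disease cannot be told apart. Each animal gave 1 library and is identified here by the number in its label.

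The libraries held 16980274 to 28636467 counts in the controls and 23704607 to 33091460 in NASH. Levels are given as CPM, read counts relative to the library total, after TMM scaling, which corrects for differences in RNA composition, and the TMM factors were 0.804 to 0.875 in controls and 1.116 to 1.241 in NASH. A gene was called changed at an adjusted p under 0.05 in edgeR's quasi-likelihood test. Scaling by library size alone moved the median log2 fold change of all tested genes from 0.00184 to 0.476, and every direction given here is relative to the TMM scale. Single members had between 72 counts (PDP2) and 42541 counts in a library, with a median of 2517.5.

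Of the 33 genes, 25 were downregulated in NASH, 3 were upregulated (IDH3A, OGDH and ME2) and 5 were not called (CS, DLST, DLD, PDHX and GOT2). Among all tested genes 26.0% were called lower and 27.9% higher. For 18 of the 33 every animal with NASH was below every control, against 15.3% of all tested genes, and for 1 (IDH3A) all animals with NASH exceeded all controls, against 18.4%. The median log2 fold change of the 33 was -0.48. With library size alone 9 were called lower and 8 higher, where 7.66% of all tested genes were lower and 63.9% higher, and 11 changed sign (IDH3B, IDH3G, DLD, SDHA, SDHB, MDH1, MDH2, PDHA1, DLAT, PDK1 and GOT2). IDH1, IDH2, SDHC, SDHD, FH, PDK2, PDP2, PCK2 and GLUD1 were called lower, and IDH3A, OGDH and ME2 higher, under every scaling tried. As a share of all counts, which uses no scaling factor, the 33 genes together took 0.527 to 0.640% of the control libraries and 0.491 to 0.527% of the NASH libraries, with control 56 and NASH 2 at the shared value.

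**Figure D1:**
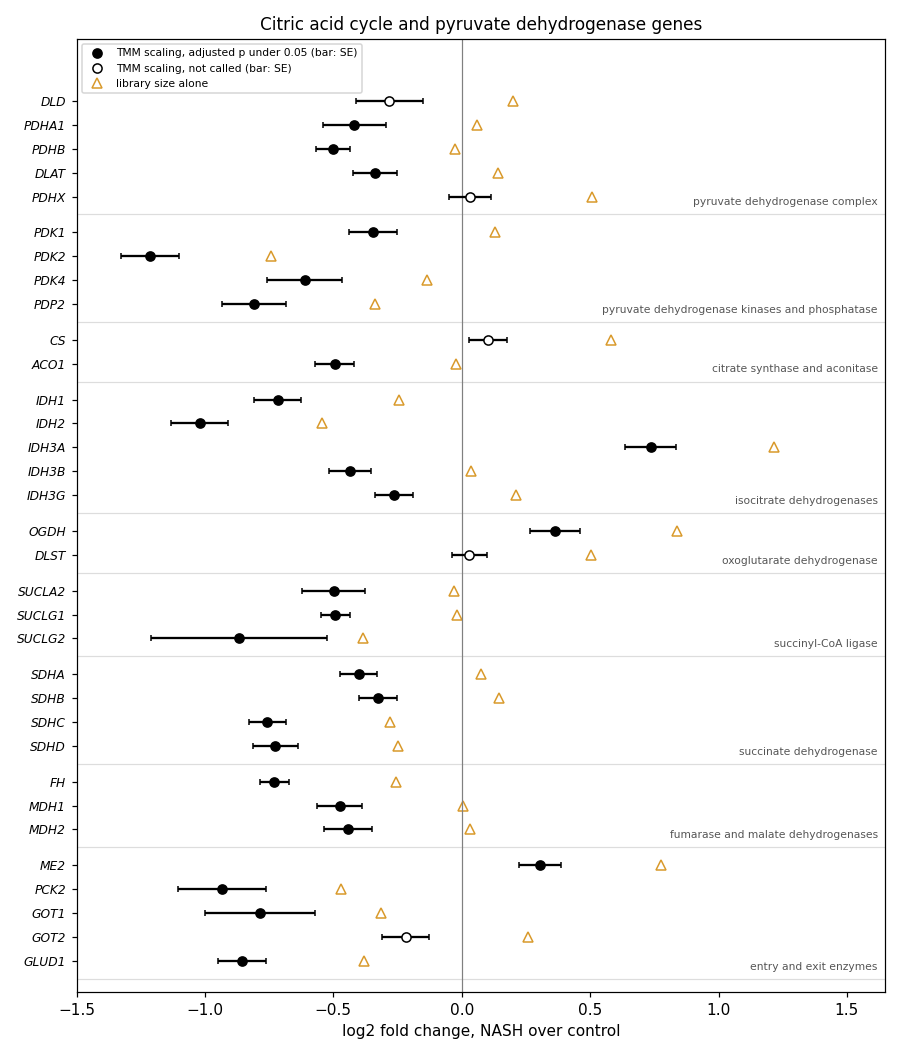
Log2 fold change (NASH over control, horizontal axis) of the 33 genes grouped by step, with bars for the standard error; filled points passed an adjusted p of 0.05 and triangles show the same gene scaled by library size alone. Most points lie left of 0, from PDK2 at -1.21 to IDH3A at 0.74, and the triangles lie to the right of the points by a nearly constant distance.

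The liver samples were bulk tissue, in which fewer cells of a type and less RNA per cell cannot be told apart. The 6 hepatocyte markers found of 8 were all lower in NASH, with a summed level of 104700 to 133800 CPM in controls and 41310 to 67110 CPM in NASH, and a median log2 fold change of -1.10. The 6 stellate cell markers were all higher, from a sum of 569.8 to 659.2 CPM to a sum of 1118 to 2367 CPM. The 3 cholangiocyte markers found of 4 were all higher as well, from 50.59 to 84.28 CPM to 223.8 to 357.9 CPM. The 3 erythroid markers found of 4 rose from 57.04 to 171.3 CPM to 426.4 to 4524 CPM in sum, SLC4A1 being at 0 in 3 controls. NASH 41 and 65 stood apart, with HBA1 at 4289 and 3120 CPM against 404.7 to 698.3 CPM in the other 4. The 2 mitotic markers found of 3 rose from 0.286 to 3.13 CPM to 12.9 to 67.8 CPM, TOP2A being at 0 in 1 control. Of the endothelial markers 3 of 4 were higher. Macrophage markers (4 found of 6) and T cell markers (4) each had 1 gene lower and 1 higher, with summed levels of 263.0 to 429.9 against 368.2 to 517.4 CPM and of 48.9 to 104.6 against 27.7 to 55.1 CPM. The part of these shifts in the values of the 33 genes was not tested.

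The catalytic core of the pyruvate dehydrogenase complex (PDHA1, PDHB and DLAT) was lower in NASH on the TMM scale, PDHA1 and DLAT changing sign with library size alone, while its E3-binding protein and E3 were not called. PDHA1 and PDHB encode the E1 subunits that decarboxylate pyruvate. PDHB ranged from 73.2 to 87.2 CPM in controls (median 78.1) and from 50.9 to 60.3 CPM in NASH (median 55.7), a change of -0.50 on the log2 scale (SE 0.07, adjusted p = 4.3e-05). The groups did not overlap for PDHB. PDHA1 ranged from 56.04 to 94.25 CPM in controls (median 66.97) and from 43.3 to 61.4 CPM in NASH (median 52.9), with some overlap and a change of -0.42 on the log2 scale (SE 0.12, adjusted p = 0.0115). The count row of PDHA1 also carried the symbol COQ3 in the deposited table, so the identity of its reads is uncertain. DLAT, the acetyltransferase E2 subunit, ranged from 37.6 to 54.0 CPM in controls (median 47.9) and from 32.7 to 39.8 CPM in NASH (median 37.7). It fell by 0.34 on the log2 scale (SE 0.09, adjusted p = 0.00504), with control 10 among the NASH animals. With library size alone the log2 fold changes of PDHA1 and DLAT were 0.06 and 0.14, and that of PDHB was -0.03.

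PDHX, which anchors E3 to the core of the complex, ranged from 10.3 to 13.9 CPM in controls (median 11.8) and from 11.4 to 13.3 CPM in NASH (median 12.1). The log2 fold change of PDHX was 0.03 (SE 0.08, adjusted p = 0.754), but 0.51 and called higher with library size alone (adjusted p = 0.000482). The NASH values of PDHX all lay inside the control range. DLD, the E3 dihydrolipoamide dehydrogenase that several complexes share, ranged from 5.18 to 9.08 CPM in controls (median 6.26) and from 4.76 to 5.99 CPM in NASH (median 5.43). Its log2 fold change was -0.28 (SE 0.13, adjusted p = 0.0863), and the highest value of DLD came from control 5. Without control 5 the value of DLD was -0.175 (adjusted p = 0.182), and without control 56, the lowest control, it passed the threshold at -0.34 (adjusted p = 0.0408). Within each animal the DLAT to PDHX count ratio was lower in NASH by 0.37 on the log2 scale with no overlap between groups (exact permutation test, adjusted p = 0.00541), and the DLAT to DLD ratio differed by -0.07 (exact permutation test, adjusted p = 0.662).

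The 3 kinases and the phosphatase among the 33 genes were called lower on the TMM scale, but with library size alone PDK1 changed sign (0.13) and PDK4 was not called. On the TMM scale, though not with library size alone (IDH3A 1.215, PDK2 -0.742), the pyruvate dehydrogenase kinase PDK2 had the largest fold change of the 33 genes. It ranged from 86.7 to 111 CPM in controls (median 107.9) and from 33.2 to 52.7 CPM in NASH (median 44.4), a change of -1.21 on the log2 scale (SE 0.11, adjusted p = 2.16e-06). Every animal with NASH was below every control for PDK2 by a wide margin, and its mean level was 56.9% lower. PDP2, a catalytic subunit of the phosphatase that opposes the kinases, ranged from 5.22 to 6.33 CPM in controls (median 5.44) and from 2.52 to 4.09 CPM in NASH (median 2.99). The groups did not overlap for PDP2, whose log2 fold change was -0.81 (SE 0.12, adjusted p = 0.000135).

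PDK4, the kinase isoform known for its induction by fasting and fatty acids, ranged from 219.6 to 364.9 CPM in controls (median 301.3) and from 138.1 to 221.5 CPM in NASH (median 190.9). The highest NASH value was just above the lowest control, and the log2 fold change was -0.61 (SE 0.15, adjusted p = 0.00321), against -0.14 with library size alone (adjusted p = 0.367). PDK1, an isoform known as a target of the hypoxia factor HIF1A, ranged from 15.0 to 18.6 CPM in controls (median 17.04) and from 11.1 to 15.9 CPM in NASH (median 12.8). It fell by 0.35 on the log2 scale (SE 0.09, adjusted p = 0.00717), with overlap between the groups and a value of 0.13 with library size alone. PDK3, the remaining kinase isoform and not among the 33, was at a low level and differed the other way, from 0.494 to 1.257 CPM (median 0.860) to 1.258 to 2.42 CPM (median 1.81). Its log2 difference was 1.06 (SE 0.27, adjusted p = 0.00532), and the groups met without overlapping. PDK3 had 99 counts over the 6 controls and 356 over the 6 NASH animals, so it passed the study's filter of 200 counts in total through the NASH libraries.

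Ratios between the kinases were compared within each animal. The PDK1 to PDK2 ratio was higher in NASH by 0.87 on the log2 scale, with all NASH animals above all controls (exact permutation test, adjusted p = 0.00541). The PDK4 to PDK2 ratio was higher by 0.62 (exact permutation test, adjusted p = 0.00902), whereas the PDK4 to PDK1 ratio differed by -0.25 (exact permutation test, adjusted p = 0.188). Without control 32 the PDK4 to PDK1 ratio passed at -0.35 (exact permutation test, adjusted p = 0.0397). The PDP2 to PDK2 ratio was higher by 0.40 (exact permutation test, adjusted p = 0.0348), with overlap, and it missed the threshold in 9 of the 12 repeats that left out 1 animal (adjusted p from 0.0541 to 0.0696), namely those without control 5, 10, 31 or 45 or without NASH 2, 9, 11, 20 or 41.

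At the entry to the cycle, citrate synthase was not called on the TMM scale. CS, which condenses acetyl-CoA with oxaloacetate, ranged from 65.4 to 86.9 CPM in controls (median 79.5) and from 78.2 to 92.1 CPM in NASH (median 82.4). The groups overlapped widely, and the log2 fold change of CS was 0.10 (SE 0.08, adjusted p = 0.271), but 0.58 with library size alone (adjusted p = 6.41e-05), where it was called higher. ACO1, the cytosolic aconitase that doubles as an iron-regulatory protein, ranged from 337.0 to 412.1 CPM in controls (median 383.6) and from 242.9 to 295.9 CPM in NASH (median 266.8). It fell by 0.50 on the log2 scale (SE 0.08, adjusted p = 0.000156) with no overlap, and its value was -0.02 with library size alone (adjusted p = 0.788).

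The isocitrate dehydrogenases split by isozyme and by subunit. IDH1 in the cytosol and IDH2 in the mitochondrion use NADP, whereas IDH3 is the NAD-dependent enzyme of the cycle and is built from the catalytic subunit IDH3A with IDH3B and IDH3G. IDH2 ranged from 254.9 to 409.3 CPM in controls (median 314.1) and from 139.4 to 175.9 CPM in NASH (median 156.4). Its log2 fold change was -1.02 (SE 0.11, adjusted p = 7.7e-06), and its mean level was 50.7% lower in NASH. IDH1 ranged from 641.8 to 843.4 CPM in controls (median 778.8) and from 398.2 to 523.2 CPM in NASH (median 453.6), a change of -0.72 on the log2 scale (SE 0.09, adjusted p = 2.94e-05). Neither NADP-dependent isozyme overlapped between the groups.

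IDH3A went the other way. It ranged from 12.4 to 14.4 CPM in controls (median 13.1) and from 17.8 to 26.2 CPM in NASH (median 22.9), a change of 0.74 on the log2 scale (SE 0.10, adjusted p = 4.55e-05). All 6 animals with NASH were above all 6 controls, and the controls lay close together, with a coefficient of variation of 5.80% against 14.9% in NASH. Its partner subunits were lower. IDH3B ranged from 58.5 to 79.1 CPM in controls (median 67.7) and from 46.0 to 55.7 CPM in NASH (median 49.7), a fall of 0.44 on the log2 scale (SE 0.08, adjusted p = 0.00056). IDH3G ranged from 45.3 to 57.3 CPM in controls (median 51.5) and from 40.4 to 44.7 CPM in NASH (median 42.8), a fall of 0.26 (SE 0.07, adjusted p = 0.00786). Neither of these subunits overlapped between the groups on the TMM scale, but with library size alone their log2 fold changes were 0.04 and 0.21, IDH3G then being called higher (adjusted p = 0.0333).

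Ratios within an animal need no scaling between animals. The IDH3A to IDH3B log2 count ratio ranged from -2.49 to -2.18 in controls and from -1.64 to -0.81 in NASH, a difference of 1.15 (exact permutation test, adjusted p = 0.00541). The IDH3A to IDH3G ratio rose by 0.98, the IDH2 to IDH3A ratio fell by 1.73 and the IDH1 to IDH3A ratio fell by 1.44, all with no overlap and the same adjusted p of 0.00541 in the exact permutation test. Transcript length is not removed from these ratios, so they are read between groups and not as subunit proportions. The IDH3B to IDH3G ratio fell by 0.17 with overlap (exact permutation test, adjusted p = 0.0167). The IDH1 to IDH2 ratio differed by 0.29 and did not pass (exact permutation test, adjusted p = 0.101), although it did without NASH 2 (adjusted p = 0.0333).

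**Figure D2:**
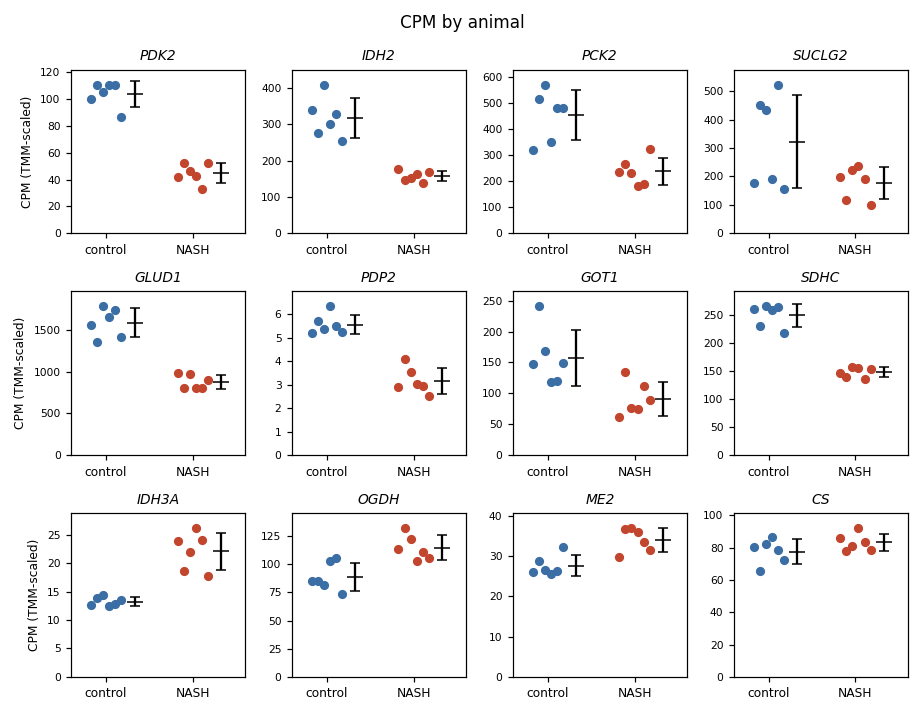
TMM-scaled CPM (vertical axis, from 0) in each of the 6 control and 6 NASH animals for the 8 genes with the largest called changes, the 3 upregulated genes and CS; each point is an animal and the bar beside each group shows the mean and SD. The groups are apart for PDK2, IDH2, GLUD1, PDP2, SDHC and IDH3A and overlap for PCK2, SUCLG2, GOT1, OGDH, ME2 and CS.

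The oxoglutarate dehydrogenase complex converts 2-oxoglutarate to succinyl-CoA, with OGDH as E1, DLST as E2 and DLD as the shared E3. OGDH ranged from 73.8 to 105.5 CPM in controls (median 85.1) and from 102.7 to 132.0 CPM in NASH (median 112.2), a change of 0.36 on the log2 scale (SE 0.10, adjusted p = 0.00711). The highest controls for OGDH reached the lowest NASH animals. DLST ranged from 41.7 to 50.8 CPM in controls (median 43.0) and from 42.8 to 50.4 CPM in NASH (median 44.8), and its log2 fold change was 0.03 (SE 0.07, adjusted p = 0.738), but 0.50 and called higher with library size alone (adjusted p = 7.07e-05).

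OGDH thus rose relative to both of its partners. The OGDH to DLD ratio was higher in NASH by 0.64 on the log2 scale with no overlap (exact permutation test, adjusted p = 0.00541), and the OGDH to DLST ratio was higher by 0.34 with slight overlap (exact permutation test, adjusted p = 0.00902). OGDHL, a paralogue of OGDH and not among the 33, fell steeply. It ranged from 390.8 to 498.3 CPM in controls (median 423.9) and from 90.2 to 174.8 CPM in NASH (median 110.2), a change of -1.77 on the log2 scale (SE 0.16, adjusted p = 1.68e-06). The setting of OGDH beside OGDHL, and of PDK2 beside PDK3, was chosen after their values were seen. Multimapped reads were ignored in the study, so reads that mapped to both paralogues were counted for neither.

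All 3 subunits of succinyl-CoA ligase, the step that makes ATP or GTP, were lower in NASH, but they differed in how firmly. SUCLG1, the common alpha subunit, ranged from 158.0 to 184.3 CPM in controls (median 161.4) and from 112.4 to 123.7 CPM in NASH (median 117.5). It fell by 0.49 on the log2 scale (SE 0.06, adjusted p = 1.27e-05) with no overlap. SUCLA2, the ADP-forming beta subunit, fell by 0.50 (SE 0.12, adjusted p = 0.00397), from 35.2 to 43.2 CPM to 20.8 to 32.6 CPM, also with no overlap. With library size alone both values were close to 0, at -0.02 for SUCLG1 and -0.03 for SUCLA2.

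SUCLG2, the GDP-forming beta subunit, had a log2 fold change of -0.87 with an SE of 0.34, the widest of the 33. The controls ranged from 156.9 to 523.7 CPM (median 313.4) and the NASH animals from 98.6 to 237.0 CPM (median 193.7). Controls 10, 31 and 45 lay above all animals with NASH, and controls 5, 32 and 56 lay among them. The call for SUCLG2 (adjusted p = 0.0477) was lost in 8 of the 12 repeats that left out 1 animal, those without control 10, 31 or 45 or without NASH 2, 9, 11, 41 or 65 (adjusted p from 0.052 to 0.115). Neither SUCLG2 ratio, to SUCLA2 or to SUCLG1, passed the exact permutation test (adjusted p = 0.662 and 0.584).

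Succinate dehydrogenase belongs both to the cycle and to the respiratory chain as complex II. All 4 of its subunits were lower in NASH on the TMM scale, and in each the groups were fully apart. SDHC, a membrane anchor, ranged from 218.5 to 266.2 CPM in controls (median 261.1) and from 136.1 to 158.4 CPM in NASH (median 149.8), a change of -0.76 on the log2 scale (SE 0.07, adjusted p = 2.43e-06). The other anchor, SDHD, fell by 0.73 (SE 0.09, adjusted p = 1.76e-05), from 130.9 to 179.0 CPM to 77.7 to 99.8 CPM. The flavoprotein SDHA ranged from 261.7 to 344.3 CPM in controls and from 214.2 to 248.5 CPM in NASH, and the iron-sulphur subunit SDHB from 116.8 to 157.0 CPM and from 95.9 to 109.6 CPM. SDHA fell by 0.40 (SE 0.07, adjusted p = 0.000483) and SDHB by 0.33 (SE 0.07, adjusted p = 0.00241), and with library size alone their log2 fold changes were 0.07 and 0.15 while both anchors were still called lower. Anchors were not set against the catalytic subunits in a test. The SDHA to SDHB and SDHC to SDHD ratios differed by -0.08 and -0.03 (exact permutation test, adjusted p = 0.547 and 0.767). SDHA and SDHD each shared a count row with another, clone-named human symbol, so their reads are uncertain in the same way as those of PDHA1.

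Fumarase had the smallest adjusted p of the 33 genes on the TMM scale. FH, which hydrates fumarate to malate, ranged from 162.1 to 186.6 CPM in controls (median 174.0) and from 99.01 to 110.3 CPM in NASH (median 106.8), a change of -0.73 on the log2 scale (SE 0.06, adjusted p = 5.38e-07). Both groups were tight for FH, with coefficients of variation of 5.17% and 4.05%. The malate dehydrogenases, MDH1 in the cytosol and MDH2 in the mitochondrion, interconvert malate and oxaloacetate. MDH1 ranged from 113.0 to 161.3 CPM in controls and from 89.5 to 110.6 CPM in NASH, and MDH2 from 129.8 to 187.5 CPM and from 103.6 to 125.1 CPM. They fell by 0.48 (SE 0.09, adjusted p = 0.000509) and 0.44 (SE 0.09, adjusted p = 0.00137) with no overlap, but had values of 0.00498 and 0.03 with library size alone. Their ratio differed by -0.04 (exact permutation test, adjusted p = 0.767).

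The enzymes that carry carbon into and out of the cycle moved apart from each other. PCK2, the mitochondrial phosphoenolpyruvate carboxykinase, ranged from 320.8 to 571.3 CPM in controls (median 482.1) and from 180.1 to 324.6 CPM in NASH (median 233.9). Its log2 fold change was -0.93 (SE 0.17, adjusted p = 0.000549), and the highest NASH animal (65) was just above the lowest control (5). PCK1, its cytosolic counterpart and not among the 33, fell much further, from 741.3 to 1991 CPM (median 1188) to 92.5 to 282 CPM (median 150), a change of -2.91 on the log2 scale (SE 0.33, adjusted p = 1.39e-05). The PCK2 to PCK1 ratio was accordingly higher in NASH by 2.03 on the log2 scale with no overlap (exact permutation test, adjusted p = 0.00541).

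The malic enzymes decarboxylate malate to pyruvate. Mitochondrial ME2 ranged from 25.5 to 32.3 CPM in controls (median 26.4) and from 29.8 to 36.9 CPM in NASH (median 34.7), a change of 0.30 on the log2 scale (SE 0.08, adjusted p = 0.00622) with overlap. Cytosolic ME1, a source of NADPH and not among the 33, was low, at 0.269 to 1.14 CPM in controls (median 0.368) and 1.84 to 3.15 CPM in NASH (median 2.61). Its log2 difference was 2.34 (SE 0.32, adjusted p = 5.56e-05), but ME1 had 54 counts over the 6 controls and 481 over the 6 NASH animals, so it passed the study's filter of 200 counts in total through the NASH libraries, and a gene at its control level would not have been tested. The ME2 to ME1 ratio was lower by 2.096 with no overlap (exact permutation test, adjusted p = 0.00541), and by 0.27 on the deposited regularised log scale, which shrinks low counts.

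**Figure D3:**
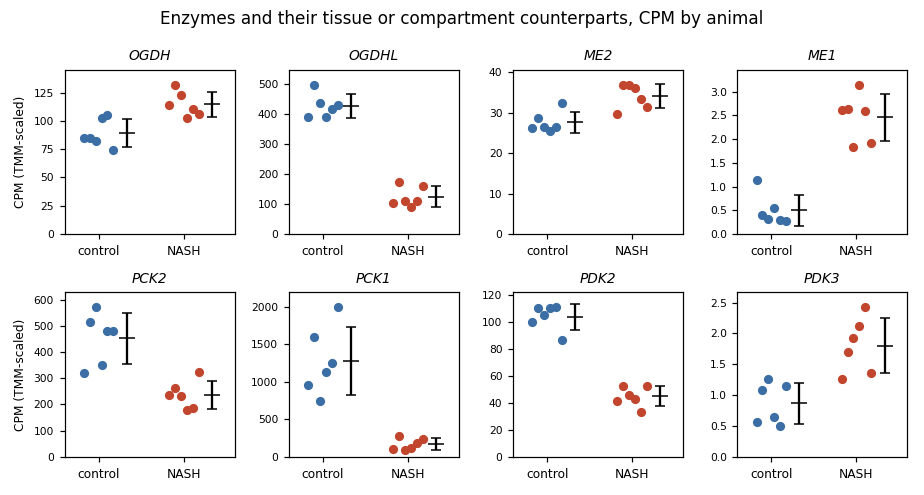
TMM-scaled CPM (vertical axes, from 0) in each of the 6 control and 6 NASH animals for OGDH and OGDHL, ME2 and ME1, PCK2 and PCK1, and PDK2 and PDK3; each point is an animal and the bar beside each group shows the mean and SD. OGDH rose while OGDHL fell, PDK2 fell, and the log2 difference of PCK1 (-2.91) was larger in size than that of PCK2 (-0.93). ME1 and PDK3 each had fewer than 200 counts over the 6 controls and passed the filter through the NASH libraries, so no weight is placed on their differences.

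Glutamate dehydrogenase and the aspartate aminotransferases link the cycle to amino acids. GLUD1, which deaminates glutamate to 2-oxoglutarate, ranged from 1356 to 1790 CPM in controls (median 1618) and from 803.6 to 985.6 CPM in NASH (median 854.3), with no overlap and a change of -0.86 on the log2 scale (SE 0.09, adjusted p = 9.1e-06). Its count row also carried the symbol GLUD2. GOT1, the cytosolic aminotransferase, ranged from 118.1 to 240.9 CPM in controls (median 148.7) and from 61.5 to 135 CPM in NASH (median 82.6), a change of -0.79 on the log2 scale (SE 0.22, adjusted p = 0.00795) with overlap, against -0.32 with library size alone (adjusted p = 0.186). GOT2, the mitochondrial form, ranged from 181.7 to 245.8 CPM in controls (median 223.9) and from 167.1 to 218.7 CPM in NASH (median 185.3), and its log2 fold change of -0.22 (SE 0.09) was not called (adjusted p = 0.0617). GOT2 passed the threshold without control 56, NASH 9 or NASH 20 (adjusted p from 0.0207 to 0.0433), and with library size alone it was called higher at 0.26 (adjusted p = 0.0234). The GLUD1 to GOT2 ratio was lower by 0.63 with no overlap (exact permutation test, adjusted p = 0.00541), and the GOT1 to GOT2 ratio differed by -0.57 without passing (exact permutation test, adjusted p = 0.0866).

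In all, 14 of the 25 ratios passed the threshold, 8 of them upwards, and in 10 the groups did not overlap. The share that passes among ratios of other gene pairs was not computed. Of all tested single genes, 26.0% were called lower and 27.9% higher. Several ratios share a gene, such as IDH3A or PDK2, so the 14 are not independent, and their number is not read as a result about these genes. The ME2 to ME1 ratio is among both the 14 and the 10, although ME1 passed the filter only through the NASH libraries, and no weight is placed on it. These 10 had a two-sided p of 0.00216, the smallest that 6 animals against 6 can give. Among ratios of subunits of 1 enzyme or complex, those within IDH3, OGDH to DLST, OGDH to DLD and DLAT to PDHX passed, while PDHA1 to PDHB, SDHA to SDHB, SDHC to SDHD, DLAT to DLD and the 3 of succinyl-CoA ligase did not (SUCLA2 to SUCLG2, SUCLG1 to SUCLA2 and SUCLG1 to SUCLG2), with PDHA1 to PDHB at 0.09 and SUCLG1 to SUCLA2 at 0.03.

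**Figure D4:**
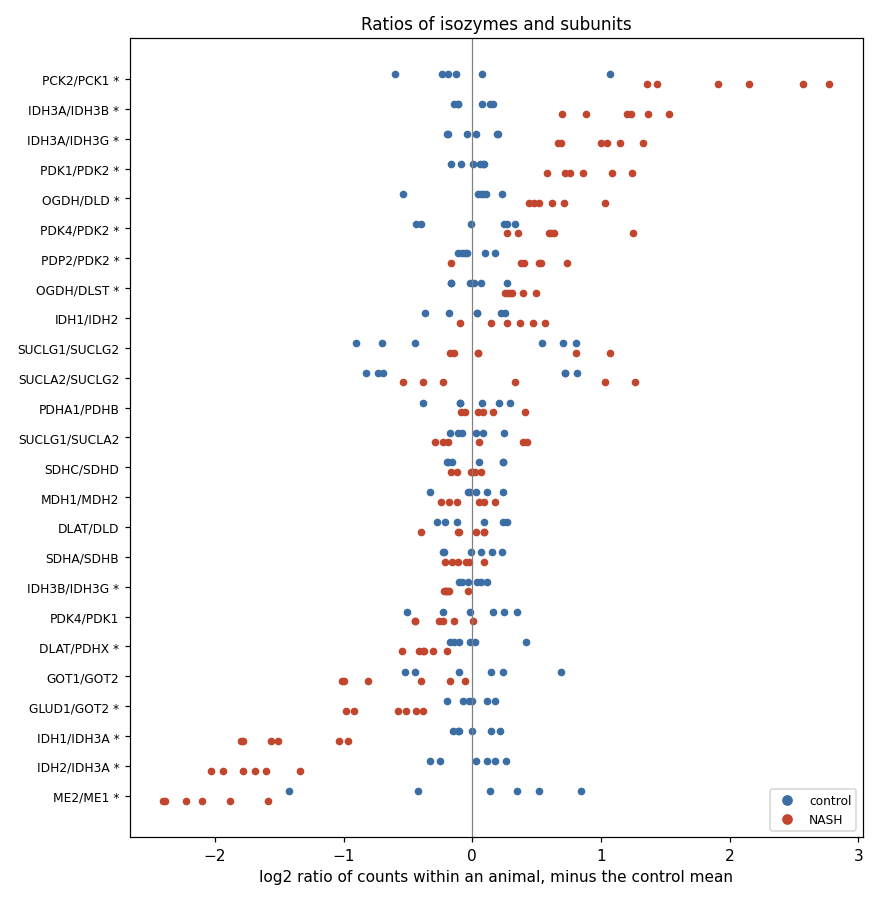
Log2 ratio of counts within each animal, minus the control mean (horizontal axis), for the 25 pairs; blue points are controls, red points NASH animals, and stars mark an adjusted p under 0.05 in the exact permutation test. The mean differences run from IDH2/IDH3A at -1.73 to PCK2/PCK1 at 2.03, apart from ME2/ME1 at -2.096 (-0.27 on rlog values), where ME1 passed the filter only through NASH, and the red and blue points are apart in 10 pairs, among them the 4 that hold IDH3A.

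Genes around these steps were examined in a wider list. Of 63 listed genes 53 were found, of which 29 were called lower and 3 higher (ME1, PDK3 and SLC25A12), against 26.0% and 27.9% of all tested genes, with a median log2 fold change of -0.32. ME1, PDK3 and SLC25A12 each had fewer than 200 counts over the 6 controls and passed the filter through the NASH libraries, so no weight is placed on their count. The same shares stand behind the counts of the shorter lists that follow. With library size alone 12 were called lower and 21 higher, against 7.66% and 63.9% of all tested genes, and the number lower was 24 with upper-quartile factors, 23 with every row tested, 23 at a threshold of 0.01 and 25 to 32 when 1 animal was left out. Among 7 genes that support the pyruvate dehydrogenase complex, 4 were lower and 1 higher. MPC2, a subunit of the mitochondrial pyruvate carrier, ranged from 55.1 to 74.3 CPM in controls (median 62.1) and from 23.8 to 28.1 CPM in NASH (median 24.1). Its log2 fold change of -1.34 (SE 0.09, adjusted p = 2.28e-07) came with no overlap, whereas its partner MPC1, at -0.59 (SE 0.36, adjusted p = 0.182), varied widely among animals and was not called.

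The other complexes that use DLD as their E3 (branched-chain ketoacid dehydrogenase, glycine cleavage and the DHTKD1 complex, with their kinase and phosphatase) were represented by 9 genes, 8 of them lower and 0 higher, and their median was -0.70. The exception, the kinase BCKDK, had a change of 0.06 on the log2 scale (SE 0.09, adjusted p = 0.591). Among the enzymes that feed the cycle, GLS2, the liver-type glutaminase, fell from 259.8 to 429.2 CPM (median 306.2) to 94.6 to 199.3 CPM (median 123.0), a change of -1.25 on the log2 scale (SE 0.20, adjusted p = 0.000187). Of 5 mitochondrial carriers 3 were lower and 1 higher. SLC25A11, the oxoglutarate carrier of the malate-aspartate shuttle, had a change of -1.15 on the log2 scale (SE 0.09, adjusted p = 4.43e-07). SLC25A12, an aspartate-glutamate carrier that is the minor form in liver, went from 1.32 to 2.25 CPM to 3.01 to 3.68 CPM. Its log2 difference was 1.01 (SE 0.15, adjusted p = 0.000112). SLC25A12, the 1 carrier called higher, had 195 counts over the controls and 663 over the NASH animals. It passed the study's filter of 200 counts in total through the NASH libraries, so no weight is placed on its difference.

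Of 16 listed genes for mitochondrial channels, chaperones, protein import and fusion, 12 were found. Among these 3 were lower (TOMM70, TIMM23 and TIMM44), 9 were not called and none was higher, where 26.0% of all tested genes were lower, and the median was -0.13. This median lay between that of the 33 genes and that of all tested genes, and the lists were not compared in a test. By location, the 29 mitochondrial members had a median of -0.44 with 21 lower and 3 higher, and the 4 with a cytosolic product (ACO1, IDH1, MDH1 and GOT1) had a median of -0.61 and were all lower on the TMM scale, whereas with library size alone MDH1 changed sign, ACO1 and GOT1 were not called and IDH1 was still called lower.

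Of 7 regulators known to act on oxidative genes, 2 were called lower and 0 higher on the TMM scale, where 26.0% of all tested genes were lower. ESRRA, a nuclear receptor for which many cycle genes are targets, ranged from 69.5 to 94.0 CPM in controls (median 84.8) and from 48.1 to 85.5 CPM in NASH (median 59.1), a change of -0.43 on the log2 scale (SE 0.12, adjusted p = 0.0107) that became 0.04 with library size alone. TFAM, which maintains mitochondrial DNA, fell by 0.24 (SE 0.09, adjusted p = 0.0348), but its value was 0.24 in the other direction with library size alone, and the call was lost without control 5 or 45 or without NASH 2, 9, 41 or 65 (adjusted p from 0.0537 to 0.0756). PPARGC1A, PPARA, HIF1A, NRF1 and ATF4 had log2 fold changes of -0.07, 0.16, 0.36, 0.04 and -0.10 and were not called, HIF1A with an adjusted p of 0.0851 that fell to 0.0119 without control 45 and to 0.0409 with upper-quartile factors. With library size alone HIF1A (0.84), NRF1 (0.51), ATF4 (0.38) and TFAM (0.24) were called higher.

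**Figure D5:**
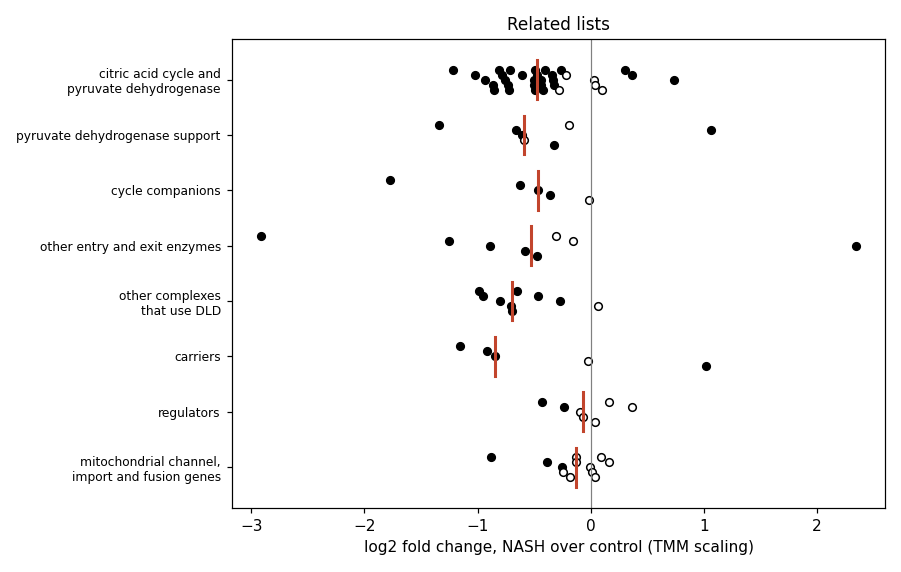
Log2 fold change (NASH over control, horizontal axis) of every gene found in each list, with filled points for genes past the threshold and a red bar at the median of the list. The medians run from -0.85 for the carriers to -0.07 for the regulators, with -0.70 for the other complexes that use DLD and -0.13 for the channel, import and fusion genes, beside -0.48 for the 33 genes.

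The spread among animals was not even. Control 56 was the lowest control for 17 of the 33 genes and above the control mean for 5, with a median deviation of -0.11 on the log2 scale, while controls 31 and 45 were each above the mean for 23. Among the animals with NASH no library stood as far from the rest, with median deviations between -0.05 and 0.06. Leaving out any 1 of the 12 animals gave 24 to 27 genes lower and 3 higher.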

How the data were processed

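RNA of 12 guinea pig livers was sequenced as stranded poly(A) libraries with single reads. According to the methods and the submitters' processing notes, the authors trimmed reads with Trimmomatic 0.38.0, aligned them to Cavpor3.0 with HISAT2 2.1.0 ignoring multimapped reads, and assembled and quantified transcripts with StringTie 1.3.6. The deposited count table holds whole read counts for 39061 rows without gene names. A second deposited table holds log2 values from the regularised log (rlog) of DESeq2 for 11896 human orthologue symbols.

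Symbols were tied to count rows by recomputing the rlog. A first match used the 18422 rows with at least 200 counts in total, and it was refined by repeating the rlog on the matched rows. The rlog of the rows finally matched to the 11896 symbols differed from the deposited log2 values by at most 8e-07. The 11896 symbols came from 11031 rows, and 1515 symbols shared a row with another.

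Counts were tested with edgeR 4.0.16 (R 4.3.3; TMM factors, library size from the whole table, robust quasi-likelihood fit, 6 controls against 6 NASH animals). P-values were adjusted by Benjamini-Hochberg over the 11896 symbols. For 25 pairs of isozymes, subunits or linked enzymes the per-animal log2 ratio of counts (0.5 added to each) was compared between the groups. The test was a two-sided exact permutation test over all 924 assignments, adjusted over the 25 pairs. Deviations of an animal from its group used log2 CPM with 2 counts added. Scripts were tested on simulated data.

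All 33 genes are given. Values by animal are given for the 8 called genes with the largest change, the genes called upwards, the genes not called and the genes of the 8 pairs that differed most, and for others where space allowed. Of the wider list, called genes whose log2 fold change reached 1 in size and the regulators are named, with a few more chosen after their values were seen. The members and lists were chosen with earlier results of these data known. Alternatives were RLE and upper-quartile factors, library size alone, DESeq2 1.42.0, limma-voom (limma 3.58.1), other filters, symbols on a shared row counted once, a threshold of 0.01, a pseudocount of 2 counts, rlog differences and leaving out each animal. Over 30 pairs of libraries within a group, none agreed within sampling noise (smallest variance ratio 43.4, where 1 is counting noise). P-values measure the spread among these animals. 1 further gene was left out of the wider list and is not reported here. Promoter sequences were not analysed here.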

Additional observations from a re-analysis of the deposited data

Results flagged for a closer look

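In 9 of the 146 groups of 6 animals examined, 1 animal lay apart from the other 5 (gap over range above Dixon's 95% critical value), and chance alone gives about 1 in 20. Control 5 accounted for 5 of them. It had the highest ME1 (1.14 CPM, next 0.551) and TFAM (48.8 CPM, next 38.9), the lowest PPARA (26.2 CPM, next 112), the highest DLAT to PDHX log2 ratio (2.39, next 1.99) and the lowest OGDH to DLD log2 ratio (3.22, next 3.81). The others were SUCLG1 in control 31 (184 CPM, next 165), NRF1 in control 56 (10.1 CPM, next 8.58), the IDH3B to IDH3G log2 ratio in NASH 65 (0.358, next 0.214) and the PDK4 to PDK2 log2 ratio in NASH 41 (2.70, next 2.09).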

How the results depend on the processing

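The scaling moved more values than any other choice. With library size alone, 9 of the 33 genes were lower and 8 higher, 12 of the wider list were lower and 21 higher, and the median of the 33 was 0.00498. The median of all tested genes was then 0.476, so that of the 33 differed from it by -0.471, against -0.477 with TMM factors. With library size alone these log2 fold changes changed sign: IDH3B 0.036, IDH3G 0.21, DLD 0.20, SDHA 0.073, SDHB 0.15, MDH1 0.00498, MDH2 0.033, PDHA1 0.058, DLAT 0.14, PDK1 0.13, GOT2 0.26, PPARGC1A 0.41, ESRRA 0.045, TFAM 0.24 and ATF4 0.38. With upper-quartile factors the median of the 33 was -0.40 and 5 of the wider list were higher, and with every row that had a count the median was -0.389. PPARGC1A was 0.00387 with upper-quartile factors, 0.061 with limma-voom and 0.023 with every row. The SUCLG1 to SUCLA2 ratio was -0.004725 on rlog values. The construction of the factors sets the shift with library size, and the cause of the others was not tested.

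Leaving out each animal gave values on both sides of 0 for PDHX (-0.005216 to 0.082), DLST (-0.002583 to 0.071), PPARA (-0.039 to 0.24), PPARGC1A (-0.17 to 0.10) and NRF1 (-0.016 to 0.097), and for the ratios MDH1/MDH2 (-0.10 to 0.01226), SUCLG1/SUCLA2 (-0.051 to 0.092), SDHC/SDHD (-0.072 to 0.01652) and DLAT/DLD (-0.12 to 5.23e-06), none of which was called. DESeq2 called 26 of the 33 lower, GOT2 included (adjusted p = 0.0463), and 3 higher. IDH3G and PDK1 missed the threshold with every row tested (adjusted p = 0.123 and 0.054), and SUCLG2 with limma-voom (0.0824), upper-quartile factors (0.07), every row (0.111) and filterByExpr (0.0691). TFAM missed it with upper-quartile factors (0.121), every row (0.194) and filterByExpr (0.0899). Calls gained with library size alone without a change of sign were CS (0.58), DLST (0.50), PDHX (0.51), HIF1A (0.84) and NRF1 (0.51), and calls lost likewise were those of ACO1, SUCLA2, SUCLG1, SUCLG2, PDHB, PDK4 and GOT1. Without the scaling by library size, 637 of 660 repeats for the 33 genes kept their direction and side of the threshold. No paired analysis was possible because no animal number is shared between the groups.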
